A study of Mus musculus with 15 samples.

Results

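Myeloid cells of the hindbrain of Twitcher (Twi) mice were compared between postnatal day 20 (P20) and postnatal day 10 (P10), to describe how gene expression changed with age in the mutant. The comparison was between 6 of the 15 libraries of the series, the 3 Twi libraries labelled P20 and the 3 labelled P10. A gene entered it with at least 1 CPM, a count scaled to library size, in at least 2 of all 15 libraries, which left 13292 genes. Each library held RNA of cells sorted as positive for CD45 and CD11b, surface proteins of microglia and of other myeloid cells, from dissected brainstem and cerebellum. Twi animals carry a mutation of Galc, and no treatment is named for any sample. The 2 Twi libraries at P15 and the wild type (WT) libraries, 2 at P10, 2 at P15 and 3 at P20, are shown beside the Twi values. They also entered the fit, in which all 15 libraries set the batch term and the estimate of the spread behind each SE and p-value. Whether every library is from its own animal is not stated in the labels. The p-values therefore describe how much these libraries vary, and that variation may be technical.

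Galc encodes galactosylceramidase, a lysosomal enzyme that breaks down galactosylceramide of myelin and its toxic relative psychosine. Its loss causes Krabbe disease in humans and the Twitcher disease in mice, in which myelin breaks down after birth and macrophages gather in white matter. Microglia are the resident macrophages of the brain. They mature in the weeks after birth, when they stop dividing and take on a set of homeostatic genes, and they respond to injury or interferon with chemokines, antiviral genes and antigen presentation genes.

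Galc was low in all 6 libraries, at 3.98, 4.27 and 5.25 CPM at P10 and 5.65, 8.997 and 5.97 CPM at P20. The groups do not overlap, but the log2 fold change of 0.57 ± 0.25 (SE) did not pass (limma adjusted p = 0.259). WT libraries had 56.0 and 68.5 CPM at P10 and 35.2 to 36.8 CPM at P20. The sort markers were present throughout, with Ptprc (CD45) at 1091 to 1146 CPM at P10 and 1315 to 1796 CPM at P20, and Itgam (CD11b) at 712 to 863 and 790 to 854 CPM. The microglial receptor P2ry12 had 5133 CPM or more in each of the 6 libraries. Between 16277 and 16826 genes lay above the lowest value of the table, and 10.6% to 11.6% of each library came from its 10 most abundant genes. The first principal component of the 6 libraries, with 34.1% of the variance, placed P10 between -49.01 and -30.63 and P20 between 19.22 and 62.38. The next, with 19.4%, separated the P20 libraries, with replicate 1 at 50.34 and replicate 3 at -50.85. Twi P10 replicate 2 was the library of sequencing batch 1 and the other 5 were of batch 2. Y-linked genes were high in replicate 2 of each age and low in the other libraries.

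Markers of other blood and brain cells moved with age as well, and their part in the results was not tested. The summed level of 25 neutrophil markers was 9896, 8248 and 13400 CPM at P10 and 18570, 20540 and 38760 CPM at P20. That of 24 monocyte markers was 4328, 3389 and 4901 CPM at P10 and 6135, 8399 and 13860 CPM at P20. In both sums P20 replicate 3 was highest, and the ages do not overlap. The sum of 27 neuronal markers went the other way, from 115.0 to 141 CPM at P10 to 75.6 to 86.8 CPM at P20. That of 16 B cell markers went from 1180 to 1218 CPM to 624 to 893 CPM. Most of each B cell sum was Ighm, at 943 to 956 CPM at P10 and 496 to 707 CPM at P20. Of the 11 B cell markers tested, 5 had a positive log2 fold change, and the median was -0.0067. Sums of border-associated macrophage markers overlapped, at 1988 to 3293 CPM and 1595 to 2542 CPM. In bulk RNA, fewer cells of a type and less RNA per cell cannot be told apart.

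**Figure D1:**
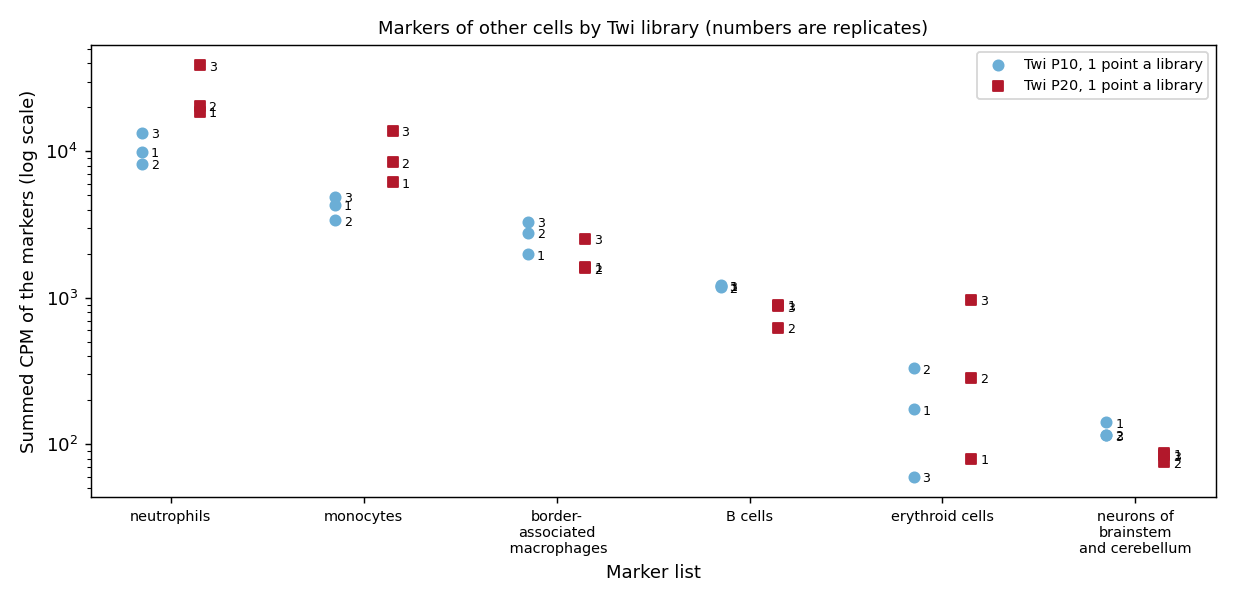
Summed level in CPM, on a log axis, of marker lists of other cell types, 1 point for each Twi library at P10 and P20. Neutrophil and monocyte sums were higher at P20 in all 3 libraries, neuronal and B cell sums were lower, and Twi P20 replicate 3 had the highest neutrophil sum, 38760 CPM. Most of each B cell sum was the single gene Ighm.

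Between P10 and P20, 318 genes changed, 204 higher and 114 lower (limma adjusted p under 0.05). These are 2.39% of the genes tested, 1.53% higher and 0.858% lower. An unadjusted p under 0.05 was reached by 2185 genes. In 316 of the 318 the P20 libraries lay wholly above or below the P10 libraries, as they did for 21.2% of all genes tested, 10.6% in each direction. The median log2 fold change of all genes was -0.00. With every library moved to the same median there were 189 higher and 172 lower calls, so that the higher share of the calls went from 64.2% to 52.4%. Leaving out Twi P10 replicate 1 gave 75 higher and 25 lower, and leaving out Twi P10 replicate 3 gave 81 and 37. Leaving out Twi P20 replicate 2 gave 70 and 35, and leaving out Twi P20 replicate 3 gave 96 and 86. In batch 2 libraries alone they were 122 higher and 39 lower. Of 95 called genes of the naming rule, 56, 22 and 52 did not pass when Twi P10 replicate 1, 2 or 3 was left out, and 12, 53 and 38 when Twi P20 replicate 1, 2 or 3 was, and none changed sign. The 22 that passed under every one of the 32 alternatives were Alg10b, Axl, Ccl12, Ccl2, Cd14, Cd69, Cd72, Ch25h, Chil3, Cxcl16, H2-K1, H2-Q6, Hcar2, Ifi204, Igfbp4, Il12b, Il2rg, Lgals3bp, Nfkbia, Slfn2, Sox11 and Tlr2.

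The largest rises included genes of activated myeloid cells. Il12b, the subunit shared by interleukins 12 and 23, measured 0, 2.58 and 0.261 CPM at P10, 8.39 and 26.5 CPM at P15, and 42.2, 23.8 and 37.2 CPM at P20. Every P20 library was above every P10 library, and the log2 fold change was 6.75 ± 0.87 (SE, adjusted p = 0.00222). No WT library passed 0.422 CPM. Ch25h, which makes the oxysterol 25-hydroxycholesterol, went from 0.436, 1.56 and 1.04 CPM to 9.47, 25.1 and 46.9 CPM, a change of 4.81 ± 0.69 (adjusted p = 0.00337). The lowest P20 library was above every P10 library, with a wide spread within P20. Hcar2, a receptor for butyrate and niacin, was tight at both ages, with 6.06, 5.48 and 6.11 CPM and then 53.1, 67.4 and 66.8 CPM (3.48 ± 0.36, adjusted p = 0.000721).

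Surface and adhesion molecules were also among the largest rises. Cd72, a C-type lectin of B cells and myeloid cells, had 21.6, 52.04 and 17.1 CPM at P10 and 142, 163 and 282 CPM at P20 (2.96 ± 0.33, adjusted p = 0.000927). Cd69, an early activation antigen, had 4.09, 12.6 and 3.54 CPM and then 37.7, 44.1 and 47.8 CPM (3.26 ± 0.49, adjusted p = 0.00458). In both genes the batch 1 library, Twi P10 replicate 2, was highest of its group and still below P20. Vcan, the proteoglycan versican, which is on both the monocyte and the oligodendrocyte precursor marker lists, rose from 2.34, 1.96 and 0 CPM to 22.8, 14.8 and 12.9 CPM (4.52 ± 0.99, adjusted p = 0.0354). Ccr7, a homing receptor of dendritic cells, rose by 4.46 ± 1.01 to 5.14, 11.4 and 17.9 CPM, and Ccl22, a chemokine of dendritic cells, by 4.05 ± 0.78 to 2.34, 4.44 and 10.3 CPM. Twi P20 replicate 3 was highest in both. Further rises, at 8.27 CPM or less in the 6 libraries, were in Igfbp6 (3.72 ± 0.74), the stress gene Gadd45b (3.25 ± 0.72), the CD30 ligand Tnfsf8 (3.21 ± 0.56), Emp1 (3.21 ± 0.73) and H2-M2 (3.21 ± 0.78). Ap3m2, a subunit of an adaptor complex for vesicle sorting, was listed at 0 in all 3 P10 libraries and at 2.75, 4.06 and 1.95 CPM at P20, while WT libraries at P10 had 2.74 and 2.95 CPM.

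The largest falls included Sox11 and Tubb3. Sox11, a transcription factor of immature neurons, had 24.3, 5.68 and 9.59 CPM at P10 and 0.336, 1.03 and 0.402 CPM at P20 (-4.33 ± 0.57, adjusted p = 0.00224). Tubb3, the neuronal tubulin, had 8.41, 2.37 and 2.82 CPM and then 0, 0.325 and 0 CPM (-4.80 ± 0.94, adjusted p = 0.0171). Twi P10 replicate 1 was highest in both. Crmp1, Ptn, Gpm6a, Elavl3, Gap43 and Map1b fell, with log2 fold changes from -4.63 (Crmp1) to -2.59 (Map1b). Their WT changes were called lower too, for example -6.31 for Gap43 and -3.73 for Map1b. Alg10b, a glycosyltransferase of the N-glycan pathway, was at 7.62, 8.73 and 6.04 CPM at P10, at 3.74 and 1.77 CPM at P15, and listed at 0 in all P20 libraries. It was listed at 0 in all 3 WT libraries of P20 as well, and at 1.76 and 0 CPM in WT at P10.

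Folr2, a folate receptor of border-associated macrophages, went from 22.7, 16.4 and 31.5 CPM to 3.19, 3.11 and 6.75 CPM (-2.47 ± 0.50, adjusted p = 0.0211). Grm3, a metabotropic glutamate receptor, went from 1.70, 3.67 and 1.08 CPM to 0.168, 0 and 0.134 CPM (-3.38 ± 0.60, adjusted p = 0.0105), while WT libraries stayed at 1.71 to 2.75 CPM at P10 and P20. Atp9a, a lipid flippase of endosomes, kept its P10 level of 3.44 to 4.73 CPM at P15, with 4.71 and 5.92 CPM, and had 0.245, 0.987 and 1.42 CPM at P20 (-2.34 ± 0.52). Bdh1 and Enpp6 changed by -3.36 and -2.83 on the log2 scale, and Adamts17 was also lower, at 4.41 CPM or less in the 6 libraries.

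**Figure D2:**
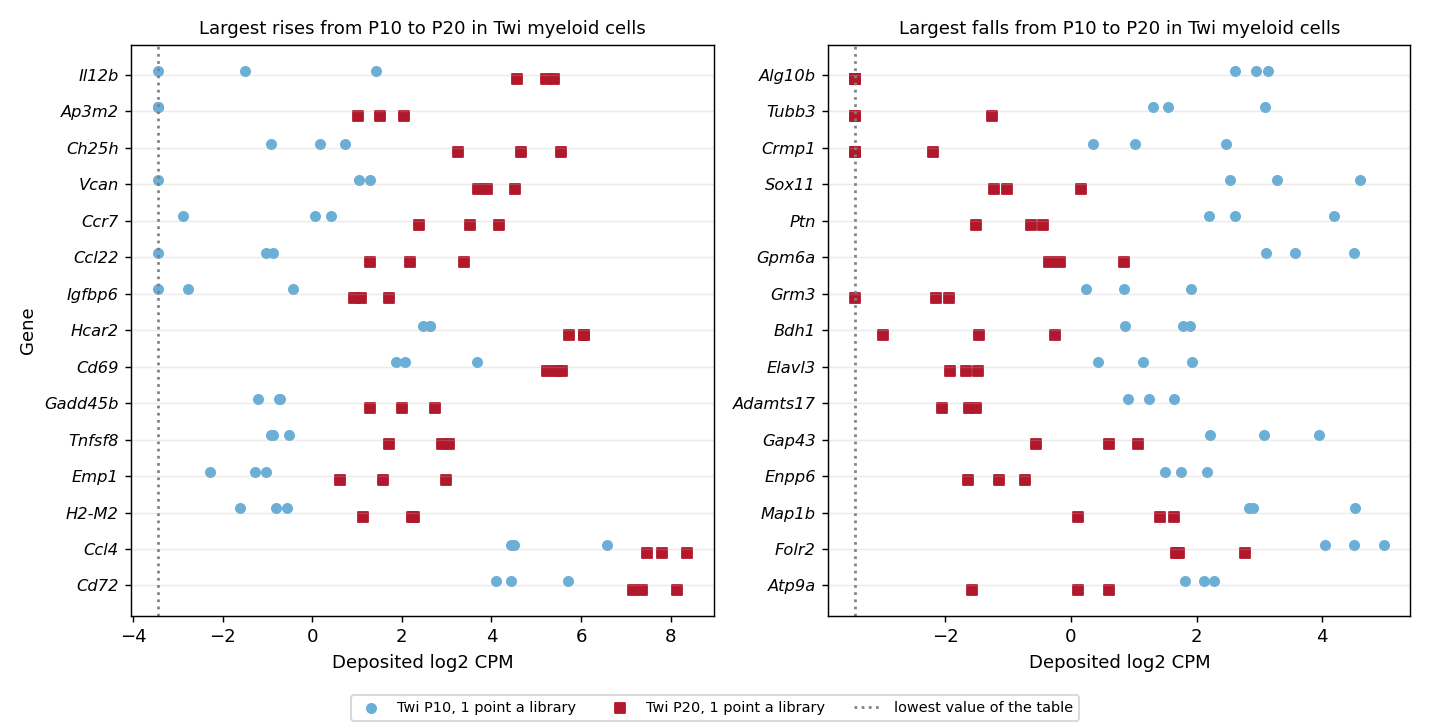
Deposited log2 CPM of the 15 genes with the largest rises (left) and the 15 with the largest falls (right) among called genes of at least 2 CPM, 1 point for each library. Circles are Twi P10, squares are Twi P20 and the dotted line is the lowest value of the table. No gene shown has overlapping ages.

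Interferon-stimulated genes rose together. Of 57 on the list, 55 passed the filter on low values. Of these, 23 rose (41.8%, beside 1.53% of all genes), none fell, 54 had a positive log2 fold change and the median was 1.18. Ifi204, a nuclear DNA sensor, had 52.5, 91.6 and 53.8 CPM at P10, 142 and 147 CPM at P15 and 156, 261 and 205 CPM at P20 (1.73 ± 0.26, adjusted p = 0.00386). Lgals3bp, a secreted galectin ligand, was even across the P20 libraries, at 812, 833 and 825 CPM, above 392, 572 and 335 CPM at P10 (1.03 ± 0.16, adjusted p = 0.00627). Slfn2, a regulator of immune cell quiescence, rose from 182, 232 and 181 CPM to 365, 414 and 513 CPM (1.14 ± 0.19). Oas3, which makes the second messenger that activates RNase L, rose from 4.00, 4.86 and 4.35 CPM to 12.2, 16.9 and 29.1 CPM (2.16 ± 0.41), and Ifi35 by 0.78 ± 0.14. Ly6e, among the most abundant members, had 1057 to 1627 CPM at P10 and 1275 to 1786 CPM at P20 and did not pass (0.21 ± 0.17, adjusted p = 0.619). With a P10 library left out the number that rose was 4 (replicate 1) or 3 (replicate 3), and with a P20 library left out 3 (replicate 2) or 9 (replicate 3).

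The promoters of these genes were read for the core of the interferon response element, written GAAANNGAA and searched on both strands from 250 bases before to 50 after each RefSeq gene start (build GRCm38.p6, older than the build named for the reads). The core stood in 9.19% of the 10196 tested genes with a promoter, in 43 of 157 genes that rose (27.4%) and in 11 of 88 that fell (12.5%). Without the interferon and MHC class I lists it stood in 31 of 132 that rose (23.5%). Within the interferon list it stood in 10 of the 19 that rose and in 16 of the 23 that did not pass, so its presence did not mark which members rose. These shares are descriptions without a test, and a match of letters is not shown to be a bound site. The members of the list that rose and hold at least 2 cores in the first window are printed 5′ to 3′ on the gene's strand, with cores in capitals and up to 25 bases of flank, none after the start. Capitals that begin with TTC are cores on the other strand.
Ifit1: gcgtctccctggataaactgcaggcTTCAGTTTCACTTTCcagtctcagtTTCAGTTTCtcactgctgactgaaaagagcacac
Ifit3: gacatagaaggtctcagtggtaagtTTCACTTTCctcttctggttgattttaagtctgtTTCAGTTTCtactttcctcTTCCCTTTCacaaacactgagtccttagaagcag
Isg15: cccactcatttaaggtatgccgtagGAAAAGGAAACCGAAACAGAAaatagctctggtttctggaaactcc
Oas3: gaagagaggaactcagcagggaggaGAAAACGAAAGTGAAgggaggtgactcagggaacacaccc
Irgm1: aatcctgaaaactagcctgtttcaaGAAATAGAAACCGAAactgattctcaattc
Slfn5: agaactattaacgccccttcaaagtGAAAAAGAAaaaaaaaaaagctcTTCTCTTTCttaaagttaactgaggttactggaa

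The stretches are chr19:34640755-34640838 (Ifit1, plus strand), chr19:34583349-34583460 (Ifit3, plus), chr4:156200851-156200921 (Isg15, minus), chr5:120777695-120777759 (Oas3, minus), chr11:48871421-48871475 (Irgm1, minus) and chr11:82951922-82952003 (Slfn5, plus). In Ifit1, Isg15, Oas3 and Irgm1 neighbouring cores overlap. Ifit1 and Ifit3, which bind foreign RNA, had 25.6, 58.6 and 26.3 CPM and 77.4, 190 and 84.9 CPM at P10, with Twi P10 replicate 2 highest. At P20 they had 126, 129 and 126 CPM (1.87 ± 0.35) and 346, 440 and 334 CPM (1.79 ± 0.40). Isg15, a ubiquitin-like modifier, had 9.16, 27.1 and 11.2 CPM and then 27.1, 50.2 and 52.6 CPM (1.71 ± 0.41), with P20 replicate 1 level with the highest P10 library. Irgm1, an immunity-related GTPase, rose by 1.07 ± 0.23 and Slfn5 by 1.18 ± 0.29.

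Of 49 chemokines and cytokines on the list 42 passed the filter, 12 of these rose (28.6%) and Cxcl12 was lower, with a median log2 fold change of 1.33. The CCR2 ligands Ccl2 and Ccl12, which recruit monocytes, rose by 2.46 ± 0.28 (adjusted p = 0.000927) and 2.57 ± 0.35 (adjusted p = 0.00428). Ccl2 had 51.8, 97.4 and 42.4 CPM at P10 and 251, 278 and 368 CPM at P20. Ccl12 had 171, 669 and 340 CPM and then 1774, 1721 and 1733 CPM, so libraries far apart at P10 were even at P20. Ccl4, a chemokine of activated macrophages, had 22.6, 95.5 and 21.6 CPM and then 178, 224 and 330.5 CPM (2.99 ± 0.48). Cxcl16, a membrane-bound chemokine, had 61.2, 36.4 and 39.8 CPM and then 147, 209 and 176 CPM (1.80 ± 0.24). Cxcl12, a chemokine of stromal and endothelial cells, had 0.727, 0.261 and 3.55 CPM at P10 and was listed at 0 in all Twi libraries of P15 and P20. Spp1, osteopontin, the most abundant member in some libraries, spread from 128 to 1392 CPM at P10 and from 317 to 927 CPM at P20 (-0.56 ± 0.95, adjusted p = 0.835). The list had 5 rises without any one of Twi P10 replicates 1 and 3 and Twi P20 replicates 2 and 3.

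Genes of the NF-kB pathway, which passes signals from Toll-like and cytokine receptors to the nucleus, had 8 of 29 tested higher (27.6%) and none lower, with a median of 0.69. Tlr2, a receptor for bacterial lipopeptides, had 152, 193 and 150.5 CPM at P10, 324 and 282 CPM at P15 and 370.3, 409 and 456 CPM at P20 (1.42 ± 0.13, adjusted p = 0.000277). The feedback inhibitors Nfkbia and Tnfaip3 rose by 1.24 ± 0.16 and 1.05 ± 0.19. Nfkbia had 53.9, 46.3 and 37.9 CPM and then 103, 110.0 and 118 CPM, a level also found in WT at P20 (80.6 to 111 CPM). The adhesion molecule Icam1 rose by 0.81 ± 0.15 and the costimulatory receptor Cd40 by 2.00 ± 0.39. The list had 2 rises without Twi P10 replicate 1 or without Twi P20 replicate 2, 4 without Twi P10 replicate 3, and 5 without Twi P10 replicate 2 or without Twi P20 replicate 3.

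An NF-kB site, written GGGANTTTC and searched the same way, stood in 1.30% of tested genes with a promoter and in 6 of 157 that rose (3.82%). Members of the cytokine and NF-kB lists that rose and hold it were Nfkbia, which is a known target of NF-kB, the growth factor Csf1 and the chemokine Cxcl9. They are printed with the sites in capitals, and in Cxcl9 the first capitals are an interferon element core.
Nfkbia: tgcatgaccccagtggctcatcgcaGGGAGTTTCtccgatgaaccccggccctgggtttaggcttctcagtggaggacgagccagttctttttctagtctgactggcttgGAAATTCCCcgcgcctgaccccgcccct
Csf1: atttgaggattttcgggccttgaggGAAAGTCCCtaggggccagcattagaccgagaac
Cxcl9: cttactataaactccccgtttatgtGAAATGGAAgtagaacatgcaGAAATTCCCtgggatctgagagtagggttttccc

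These lie at chr12:55492648-55492785 (Nfkbia), chr3:107760589-107760647 (Csf1) and chr5:92328200-92328279 (Cxcl9), all on the minus strand. Cxcl9 rose from 1.51, 3.29 and 0.898 CPM to 5.15, 8.04 and 10.2 CPM (2.84 ± 0.63), and Csf1, a growth factor of microglia, from 20.8, 14.4 and 22.4 CPM to 34.0, 50.4 and 52.2 CPM (1.21 ± 0.25).

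Antigen presentation through MHC class I rose in 7 of 26 genes (26.9%), with a median of 0.54 and no falls. H2-K1, a classical heavy chain, had 223, 240.4 and 161 CPM at P10, 443 and 508 CPM at P15 and 411, 480 and 499 CPM at P20 (1.15 ± 0.18, adjusted p = 0.00497). Its P15 libraries were already at the P20 level. The nonclassical H2-Q6 and H2-Q7 rose by 2.38 ± 0.39 and 2.70 ± 0.44, H2-T23 by 1.02 ± 0.16, and Tap2, of the peptide transporter, by 0.82 ± 0.14. Reads of H2-Q6 and H2-Q7, close relatives, could be split between them. B2m, the light chain, had 2555 to 4157 CPM at P10 and 3878 to 4957 CPM at P20 and did not pass (0.63 ± 0.26, adjusted p = 0.239). The list had 3 rises without Twi P10 replicate 1. Of 13 MHC class II genes, the peptide exchange factor H2-DMb1 (0.62 ± 0.12) and the protease Ctss (0.57 ± 0.10) rose, with 0 rises without Twi P10 replicate 3 and 1 without Twi P20 replicate 3. Each of the 2 genes failed to pass in 9 of 32 alternatives. The invariant chain Cd74 had 747, 912 and 983 CPM and then 1151, 1928 and 3580 CPM, and did not pass (1.20 ± 0.43, adjusted p = 0.184). Twi P20 replicate 3 was highest. It also had the highest sums of monocyte, neutrophil, erythroid and T and NK cell markers, and their part was not tested.

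**Figure D3:**
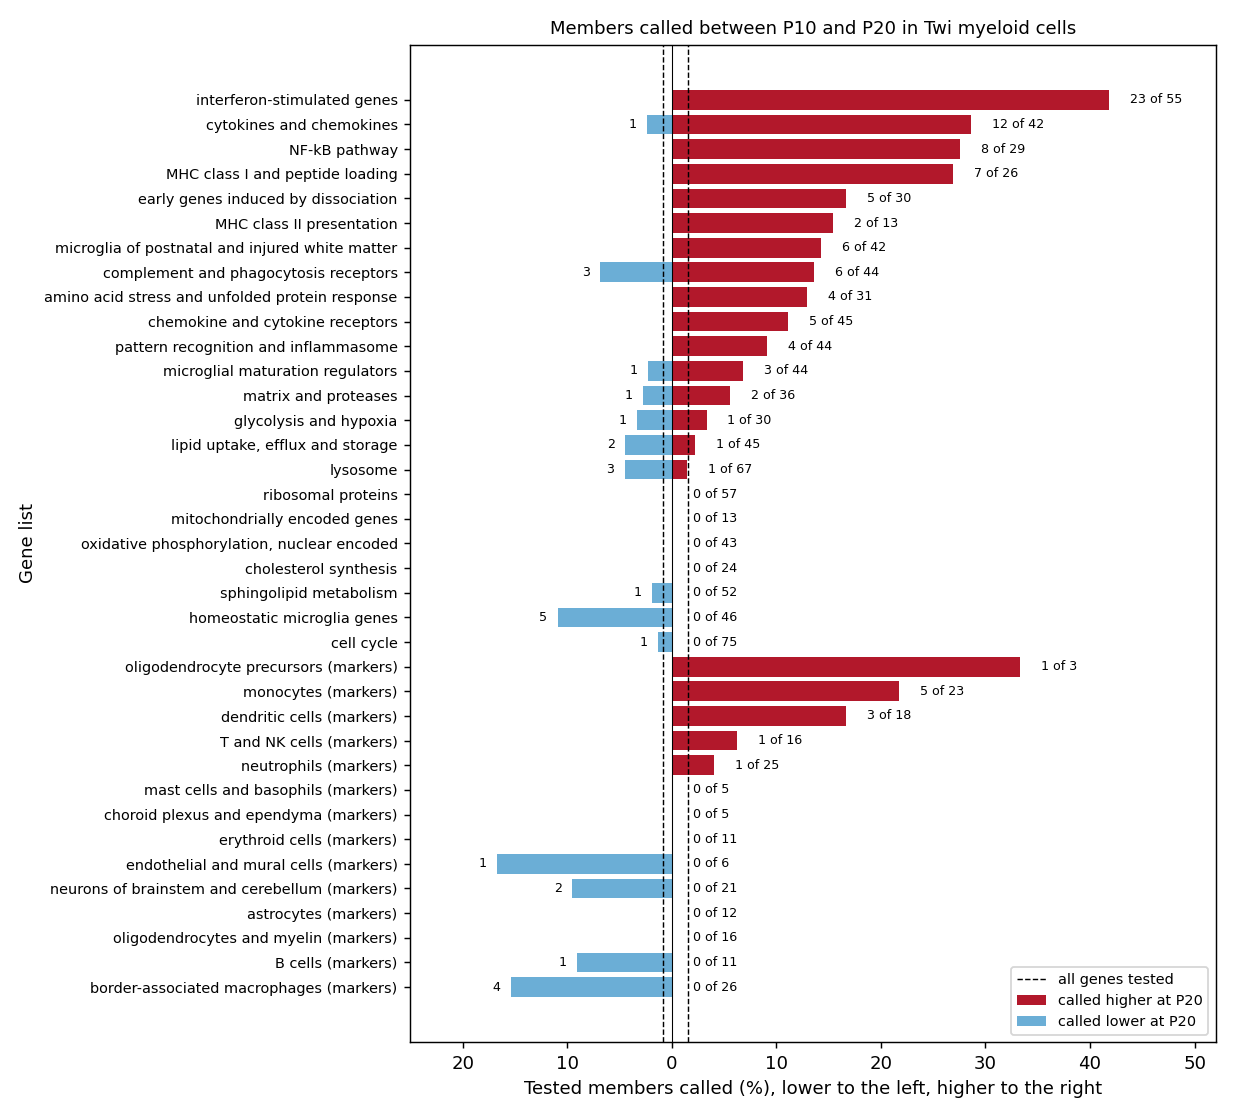
Percent of the tested members of each list called higher (right) or lower (left) at P20 than at P10 in Twi cells, with the counts beside the bars. Dashed lines are the shares over all genes tested, 1.53% higher and 0.858% lower; the interferon list has the longest bar, 23 of 55.

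Genes of homeostatic microglia gave 5 falls and no rise among 46 (10.9% lower, beside 0.858% of all genes), with a median of -0.20. Fcrls, a microglial Fc receptor-like protein, fell from 4619, 5231 and 4228 CPM to 2335, 1735 and 2605 CPM (-1.01 ± 0.16, adjusted p = 0.0066). Slc2a5, the fructose transporter, fell from 623, 681 and 555 CPM to 423, 275 and 276 CPM (-0.89 ± 0.19), and Serpine2, Cd164 and Crybb1 fell by 0.76, 0.63 and 1.46 on the log2 scale. P2ry12, the purinergic receptor that guides microglial processes, had 10770, 11250 and 10440 CPM and then 8915, 5133 and 6009 CPM without overlap, and did not pass (-0.70 ± 0.18, adjusted p = 0.0604). Leaving out any one of the 6 Twi libraries but P20 replicate 1 left 1 or 2 falls, and without P20 replicate 1 there were 8. Without either WT P15 library there were 3. In WT 3 of the 46 were called lower and 5 higher. Fcrls, Serpine2 and Crybb1 changed there by -0.71, -0.81 and -1.06, and Slc2a5 and Cd164 by 0.19 and -0.28.

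Genes described in microglia of postnatal and injured white matter gave 6 rises and no fall among 42 tested (14.3%), with a median of 0.15 and 23 positive. Axl, a receptor for phosphatidylserine-bound Gas6, rose from 54.5, 77.2 and 45.2 CPM to 156, 236 and 162 CPM (1.72 ± 0.23, adjusted p = 0.00224). Its ligand Gas6 fell from 135, 121 and 121 CPM to 70.9, 53.8 and 60.5 CPM (-1.01 ± 0.17). Slamf8, Cd83 and Clec7a, the receptor Dectin-1, rose by 1.69 ± 0.28, 0.93 ± 0.18 and 1.03 ± 0.25, beside Ch25h and Csf1. The abundant cathepsins Ctsb and Ctsd, at 7351 to 11170 CPM and 7473 to 9315 CPM over the 6 libraries, did not pass (-0.39 ± 0.13 and 0.17 ± 0.11). The list had 3 rises without any one of Twi P10 replicates 1 and 3 and Twi P20 replicates 2 and 3.

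Complement and phagocytosis genes went in both directions, with 6 higher (13.6%) and 3 lower (6.82%) of 44 tested. Of all genes tested, 1.53% were higher and 0.858% lower. Cd14, a lipopolysaccharide co-receptor, rose from 478, 505 and 327 CPM to 895, 808 and 967 CPM (1.07 ± 0.15), a level below that of WT at P20 (1066 to 1205 CPM). Complement factor Cfb rose by 1.25 ± 0.19 and the receptor C5ar1 by 0.93 ± 0.15, while the mannose receptor Mrc1 and Gas6 were among the falls. C1qb, at 6136 to 7658 CPM, did not pass (0.05 ± 0.14). Among regulators of microglial maturation, Klf6 (0.80 ± 0.14), Bhlhe40 (2.08 ± 0.44) and Atf3 (1.14 ± 0.25) rose and Maf fell, from 522, 576 and 533 CPM to 399, 308 and 329 CPM (-0.66 ± 0.12). The falls of the complement list numbered 1 without any one of the 3 Twi P10 libraries or Twi P20 replicate 2, and the rises of the maturation list 0 without Twi P10 replicate 3 or Twi P20 replicate 2 and 1 without Twi P20 replicate 3. The receptors Csf1r and Tgfbr1 did not pass (-0.19 ± 0.16 and 0.07 ± 0.17). In WT 4 of the 44 complement and phagocytosis genes were called higher and 4 lower. Mrc1 and Gas6 changed there by -2.81 and -1.71.

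Lysosomal genes, the group to which Galc belongs, gave 1 rise (1.49%) and 3 falls (4.48%) among 67 tested, with a median of -0.01. Of all genes tested, 1.53% rose and 0.858% fell. Ctss rose. Hexa, a lysosomal hydrolase, fell from 1125, 745 and 979 CPM to 493, 494 and 541 CPM (-0.90 ± 0.16, adjusted p = 0.00901), and Tpp1 and Arsb by 0.57 and 0.70 on the log2 scale. Of 52 sphingolipid genes Hexa was the one called (1.92%), and none without Twi P10 replicate 1 or 3. Psap, the precursor of saposins, had 6446 to 7365 CPM at P10 and 7357 to 9059 CPM at P20 (0.27 ± 0.13, adjusted p = 0.309). Of 45 genes of lipid uptake, efflux and storage, Ch25h rose (2.22%). The desaturase Scd2 (-0.92 ± 0.18) and the cholesterol exporter Abca1 (-0.75 ± 0.16) fell (4.44%). Falls of the lysosomal list numbered 0 without Twi P10 replicate 1 and 1 without Twi P10 replicate 3. Those of the lipid list numbered 0 without Twi P10 replicate 1 or 3 or Twi P20 replicate 2. Abca1 went from 400.5, 314 and 383 CPM to 208, 225 and 211 CPM. In WT 1 of the 67 lysosomal genes was called higher and 15 lower, with a median of -0.29. Hexa, Tpp1 and Arsb changed there by -1.14, -0.88 and -0.36, and Scd2 and Abca1 by -1.39 and -1.34.

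No gene passed among 24 of cholesterol synthesis, 43 of oxidative phosphorylation, 13 encoded by mitochondria or 57 ribosomal proteins, with medians of 0.21, 0.05, -0.09 and 0.33. Genes of amino acid stress and the unfolded protein response gave 4 rises among 31 (12.9%), the cystine transporter Slc7a11 (1.29 ± 0.24), the folate enzyme Mthfd2 (1.10 ± 0.22), the amino acid transporter Slc7a5 (1.21 ± 0.27) and Atf3. Glycolysis and hypoxia genes gave 1 rise, Ndrg1, and 1 fall, Bnip3. Ndrg1 did not pass in 20 of 32 alternatives, among them leaving out any one of the 3 Twi P10 libraries, Twi P20 replicate 2 or 3, either WT P10 or P15 library, or WT P20 replicate 1 or 2. The falls numbered 0 without Twi P10 replicate 1 or Twi P20 replicate 2, and 2 without Twi P10 replicate 2 or WT P20 replicate 1. Early genes that tissue dissociation can induce gave 5 rises among 30 (16.7%), Atf3, Btg2, Klf6, Ccl3 and Ccl4, with a median of 0.48. Of these, Ccl3 and Ccl4 are also chemokines of the list above, and the part of dissociation was not tested. The stress list had 0 rises without Twi P10 replicate 1 or 3 or Twi P20 replicate 2, and 1 without Twi P20 replicate 3. The dissociation list had 1 rise without either of these P10 libraries, and 2 and 3 without these P20 libraries.

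Chemokine and cytokine receptors gave 5 rises among 45 (11.1%). Ccr2, the receptor of inflammatory monocytes, had 137, 107 and 130 CPM at P10, 442 and 261 CPM at P15 and 245, 456 and 754 CPM at P20 (1.88 ± 0.38). The list had 1 rise without replicate 2 or 3 of either Twi age, and 3 without Twi P10 replicate 1, either WT P15 library, or WT P20 replicate 1 or 2. Il2rg, the common gamma chain, rose by 1.37 ± 0.22, and the decoy receptor Il1r2 and Ccrl2 by 1.75 ± 0.35 and 1.87 ± 0.45. Cx3cr1, the fractalkine receptor of microglia, was irregular, with 2951, 6305 and 71.2 CPM at P10 and 5383, 3769 and 3859 CPM at P20. Similar low values of 67.8 and 70.0 CPM were in 1 Twi and 1 WT library of P15, and no statement on its change is drawn (2.02 ± 2.26). Pattern recognition genes gave 4 rises among 44 (9.09%), Tlr2, Cd14, Clec7a and the cytokine Il1b (1.63 ± 0.33), and 2 without Twi P10 replicate 1 or 3 or Twi P20 replicate 2 or 3. Of 36 matrix genes and proteases, the glycoprotein Fn1 (2.18 ± 0.44) and Vcan rose and Serpine2 fell. The rises numbered 0 without Twi P20 replicate 3, 1 without Twi P10 replicate 1, Twi P20 replicate 2, WT P20 replicate 2 or either WT P15 library, and 6 without WT P20 replicate 3. The fall did not pass without Twi P10 replicate 1 or 3 or Twi P20 replicate 2 or 3. Mmp12, a macrophage elastase, had 59.7, 167 and 29.5 CPM and then 314, 284 and 328 CPM and did not pass (2.22 ± 0.53, adjusted p = 0.0532).

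Markers of monocytes gave 5 rises among 23 tested (21.7%) and a median of 1.32. Chil3 rose from 336, 274 and 409 CPM to 1089, 1438 and 1607 CPM (2.06 ± 0.31, adjusted p = 0.00649) and Ifitm6 by 1.96 ± 0.43, beside Ccr2, Vcan and Fn1. The number was 1 without Twi P20 replicate 2 or Twi P20 replicate 3, 2 without any one of the Twi P10 libraries, and 9 without Twi P20 replicate 1 or WT P20 replicate 3. It was 3 without either WT P15 library. In WT 9 of the 23 monocyte markers were called higher, with a median of 1.47. Neutrophil markers had 1 rise in Twi, Il1r2, among 25, with a median of 1.19. In 19 of them (76%) the P20 libraries lay above all P10 libraries, beside 10.6% of all genes tested. The markers were measured in the same libraries and are not independent of each other. The number that rose was 0 without Twi P10 replicate 2 or 3 or Twi P20 replicate 2 or 3, and 2 to 4 without Twi P20 replicate 1, either WT P10 library, or WT P20 replicate 2 or 3. Over all 32 alternatives it was 0 to 15, the highest with the replicate block. Ngp, a granule protein, had 5295, 3141 and 5793 CPM and then 8588, 8940 and 17310 CPM (1.22 ± 0.41, adjusted p = 0.163). S100a8 had 375, 1167 and 1024 CPM and then 1879, 2248 and 4735 CPM (2.15 ± 0.74, adjusted p = 0.183). Of border-associated macrophage markers, the mannose receptor Mrc1 fell from 219, 422 and 478 CPM to 59.9, 52.2 and 158 CPM (-2.10 ± 0.45), together with Folr2, Igfbp4 (-1.90 ± 0.27) and Maf, in all 4 falls among 26 (15.4%) with a median of -0.78. These falls numbered 2 without Twi P10 replicate 3 or Twi P20 replicate 1 and 1 without Twi P20 replicate 2. In WT 10 of the 26 were called lower, with a median of -1.30, and Mrc1 changed by -2.81.

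The remaining cell types had few calls. Dendritic cell markers gave 3 rises among 18, Ccr7, Ccl22 and Sirpb1c (1.71 ± 0.29), and 1 rise without Twi P10 replicate 3 or Twi P20 replicate 2 or 3. Of 16 T and NK cell markers Klrd1 rose, at 7.03 CPM or less. Gzmb, the cytotoxic protease, was listed at 0 in all P10 libraries and at 5.29, 0 and 4.78 CPM at P20. Of 11 B cell markers Ighd fell (-0.87 ± 0.21), and Ighm had 943, 956 and 950 CPM and then 697, 496 and 707 CPM (-0.57 ± 0.14, adjusted p = 0.0540). Neuronal markers had 2 falls, Tubb3 and Gap43, among 21, with 8 of the 28 listed at or under 1 CPM in all 6 libraries. The falls numbered 0 without Twi P10 replicate 1 or 3 or Twi P20 replicate 3, and 3 without WT P20 replicate 3. They numbered 1 without any one of the other libraries except WT P20 replicate 1 and the 2 Twi P15 libraries. Gap43 did not pass in 19 of 32 alternatives. Of 13 oligodendrocyte precursor markers 3 were tested and Vcan rose. The summed level of the 12 markers in the table, Vcan included, was 3.47 to 6.74 CPM at P10. At P20 it was 24.65, 17.01 and 13.72 CPM, without overlap. Most of each P20 sum was Vcan itself, at 22.8, 14.8 and 12.9 CPM, so the sum does not describe the other precursor markers. Vcan did not pass without any one of the 3 Twi P20 libraries, the 2 WT P15 libraries or WT P20 replicate 2. Among 16 markers of oligodendrocytes, 12 of astrocytes, 11 of erythroid cells, 5 of choroid plexus and 5 of mast cells none was called, and Pecam1 fell among 6 of vessels. All 5 mast cell and basophil markers had positive log2 fold changes, with a median of 3.70. Sums over the 11 listed did not overlap, at 28.1 to 72.9 CPM at P10 and 90.4 to 195 CPM at P20. Those of 19 vessel markers did not overlap either, at 55.1 to 84.8 and 37.7 to 43.7 CPM. The single calls in the B cell, T and NK cell, vessel and cell cycle lists were each lost without 1 or more of the Twi libraries.

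Cell cycle genes had 1 fall, the replication helicase Mcm3, among 75 tested, with a median of -0.51 and 10 positive. Mcm3 went from 169, 189 and 190 CPM to 107, 96.8 and 110.0 CPM (-0.72 ± 0.14, adjusted p = 0.0147). The mitotic cyclin Ccnb1 had 116, 145 and 160 CPM at P10, 60.2 and 85.0 CPM at P15 and 50.1, 81.2 and 97.6 CPM at P20, without overlap, and did not pass (-0.91 ± 0.30, adjusted p = 0.137). The histone H2afz was at 759 to 904 and 652 to 1086 CPM (0.00 ± 0.27). In WT, 54 of the 75 fell between the same ages and 2 rose, with a median of -1.64, beside 5.64% lower and 4.70% higher of all genes.

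To show where the mutant's change with age differed from that of WT, the difference of the changes was tested for each gene in the same fit. The groups share no library, but they share the batch term and the estimate of the spread. Of all 13292 genes 1 passed (0.00752%), and 1223 had an unadjusted p under 0.05. It was Ccl7, a monocyte chemokine. Ccl7 had 31.2, 42.9 and 24.5 CPM in Twi at P10 and 38.7, 43.8 and 58.4 CPM at P20, overlapping ages that did not pass (0.61 ± 0.29, adjusted p = 0.310). In WT it fell from 22.2 and 25.2 CPM to 4.78, 4.06 and 3.05 CPM (-2.53). The difference was 3.15 ± 0.42 (adjusted p = 0.0435), beside a fall called in WT and no change called in Twi. It did not pass without any one of the 3 Twi P10 libraries, Twi P20 replicate 2 or 3, either WT P10 library, or WT P20 replicate 1 or 2 (adjusted p 0.0606 to 0.213), nor in batch 2 libraries alone (adjusted p = 0.232).

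The other genes with the smallest p for the difference did not pass. On the positive side were Ociad2 (5.57 ± 0.80), Ccnd2, a D-type cyclin (3.09 ± 0.54), Ccl2 (2.43), Rad51ap1, of DNA repair (2.11 ± 0.34), Tacc3, of the spindle (1.74 ± 0.28), Cfb (1.64 ± 0.27) and Ctsb (1.09), with adjusted p between 0.0512 and 0.0830. Ociad2 is an example of a level that did not move evenly, at 2.62, 3.64 and 3.68 CPM at P10, 0.0004 and 0 CPM at P15, and 3.84, 2.36 and 2.87 CPM at P20. In WT it had 4.57 and 5.32 CPM at P10 and at most 0.0156 CPM at P15 and P20, so its size depends on the lowest value of the table. On the negative side were Bbs9 (-1.54 ± 0.25), Lrba (-1.84 ± 0.33), the clotting factor F5 (-2.39 ± 0.50), the histamine enzyme Hdc (-2.24 ± 0.46), Arhgef37 (-2.68 ± 0.59), Grm3 (-3.92 ± 0.88), Bank1 (-1.55 ± 0.35) and Zfp658 (-0.95 ± 0.22), with adjusted p between 0.0634 and 0.172. Bank1, an adaptor of B cells and microglia, fell in Twi from 80.0, 103.2 and 75.0 CPM to 35.6, 15.6 and 26.9 CPM (-1.70 ± 0.24), while WT had 84.6 and 88.4 CPM and then 67.3 to 81.6 CPM.

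For whole lists, the changes are given side by side. The interferon median was 1.18 in Twi and 0.47 in WT, with 23 and 8 genes called higher, and that of cytokines 1.33 and 0.17. MHC class I had 0.54 and -0.00, and homeostatic genes -0.20 and 0.24. Medians lay closer in MHC class II genes (0.62 and 0.63), monocyte markers (1.32 and 1.47) and chemokine and cytokine receptors (0.28 and 0.34). The NF-kB list had 0.69 and 0.41, with 8 and 7 called higher, and pattern recognition 0.36 and 0.27, with 4 and 11. White matter microglia genes had 0.15 in Twi and -0.48 in WT, where 12 of 42 were called lower. Neutrophil markers had 1.19 in Twi and 2.60 in WT, where 22 of 25 were called higher, and neuronal markers -0.62 and -2.60. Of the cell cycle list, 42 of 75 had a positive difference at an unadjusted p under 0.05 and none passed the adjusted threshold. Of homeostatic genes 16 of 46 had a negative one and 1 a positive one, and again none passed. Of white matter microglia genes 18 of 42 had a positive one and 0 a negative one, and none passed. Among all 13292 genes, 1223 had a difference at this unadjusted threshold, counted over both directions. Of the 204 genes that rose in Twi 101 also rose in WT, where 4.7% of all genes tested rose. Of the 114 that fell 67 also fell in WT, where 5.64% of all genes fell. The Twi and WT changes share the batch term and the estimate of the spread.

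**Figure D4:**
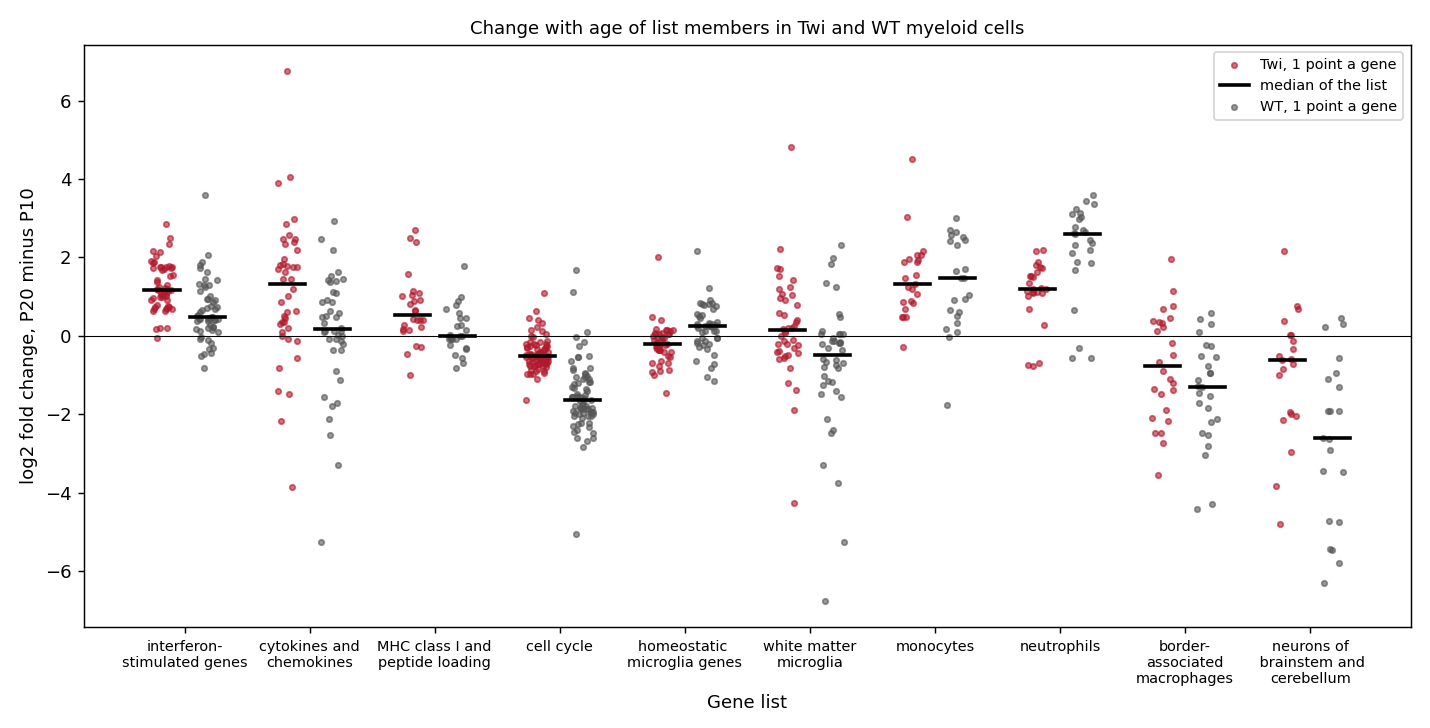
Log2 fold change from P10 to P20 of the tested members of 10 lists, 1 point for each gene, in Twi (red) and WT (grey) cells, with the median of the list as a bar. The cell cycle median is -0.51 in Twi and -1.64 in WT, and the interferon median 1.18 and 0.47.

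The P15 libraries showed that some rises were largely in place at P15 and others were not. Cxcl16 had 108 and 170 CPM at P15, between its P10 and P20 levels for one library and inside the P20 range for the other. Cd83 had 619 and 492 CPM at P15, above all P20 libraries (388, 487 and 434 CPM). Tnf, a macrophage cytokine picked here after its values were seen, had 3.49, 6.69 and 4.59 CPM at P10, 3.64 and 6.76 CPM at P15 and 20.3, 17.1 and 13.7 CPM at P20 (1.75 ± 0.39). Ccl12 had 411 and 681 CPM at P15, within or near its P10 range, before 1721 CPM or more at P20. With 2 libraries at P15, no order between genes was tested.

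**Figure D5:**
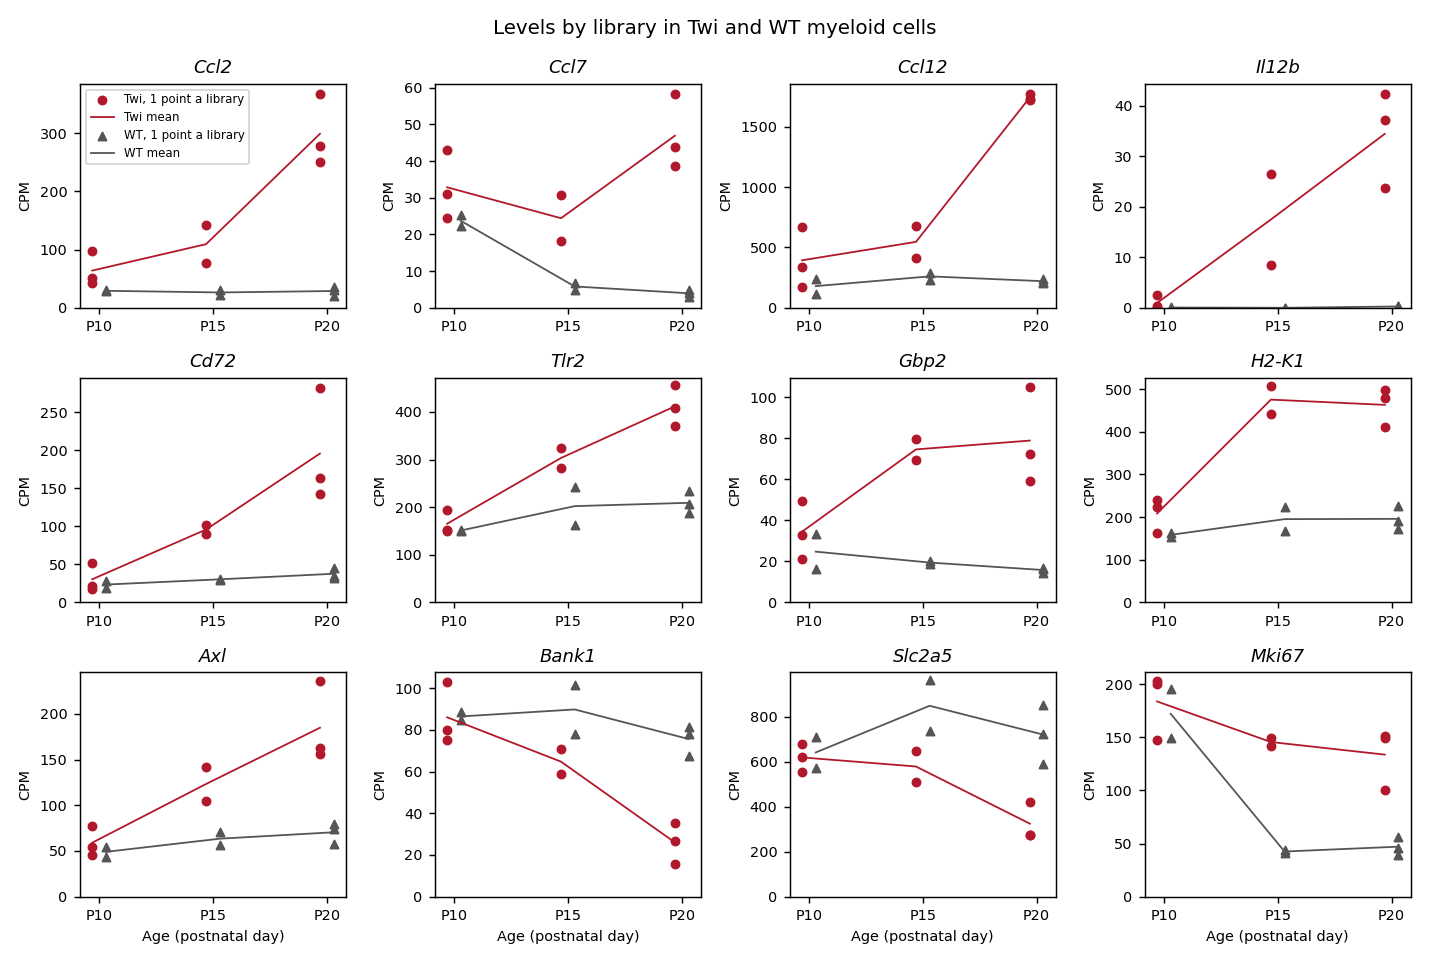
Level in CPM, on a linear axis from 0, of 12 genes chosen after their values were seen, at P10, P15 and P20 in Twi (red circles) and WT (grey triangles) cells, 1 point for each library, with lines through the group means. In Twi, Il12b and Ccl2 were higher at P20 than at P10 in all libraries, and Ccl7 at P20 was at 38.7 CPM or more in Twi and 4.78 CPM or less in WT.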

How the data were processed

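Bulk RNA-seq was made from sorted CD45+CD11b+ cells with a low-input kit and 16 to 19 PCR cycles, per the labels' protocols. These also give the depth, 29 to 42 M pairs of reads per library, and a mean mapped share of 70.24%. The submitters' processing notes name kallisto 0.46.0 and GRCm39. Log2 CPM values after TMM scaling were deposited by the authors and carried the tests. TPM values were deposited by the authors too and served as an alternative, summing to 87.7% to 89.8% of the total that the unit implies. Neither holds counts, so no count model was fitted. The table had 29957 rows, and the 1 without a gene name (0.0282% to 0.0687% of a library) was left out. Printed CPM are the deposited value brought to the linear scale minus the lowest value of the table, 0.0921 CPM. Limma 3.58.1 in R 4.3.3 fitted 6 genotype-by-age groups and batch over all 15 libraries, with trended, robust empirical Bayes, 8 residual degrees of freedom and Benjamini-Hochberg adjustment over 13292 genes, and fold changes are on the deposited log2 scale, which understates changes of low genes. Adjusted p-values are from this fit unless an alternative is named. The column of 1 WT P10 library carries no matching replicate number and was used as a replicate of its group in batch 1. The script was tested on simulated data.

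Genes named are Galc, the 15 largest rises and 15 largest falls among called genes without overlap at 2 CPM or more, for each list up to 5 with the smallest p and the 2 most abundant, and 8 genes each way for the difference from WT. A gene that this rule names is not reported here. Ifit1, Ifit3, Isg15, Irgm1, Slfn5, Cxcl9, Cxcl12, Tnf, Ptprc and Itgam lie outside that rule and were chosen after their values were seen. The 23 function lists and 14 marker lists, and the comparison itself, were chosen with earlier results of these data known. Alternatives were other scalings, TPM, pseudocounts, filters, batch and sex terms, weights, a replicate block and leaving out each library.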

Additional observations from a re-analysis of the deposited data

Results flagged for a closer look

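The change of Ccl7 with age differed between genotypes by the test of the difference itself, 3.15 on the log2 scale (SE 0.42, limma adjusted p = 0.0435). Twi libraries had 24.5 to 42.9 CPM at P10 and 38.7 to 58.4 CPM at P20, and WT libraries 22.2 and 25.2 CPM and then 3.05 to 4.78 CPM. The difference lay between 2.89 and 3.37 over its 28 alternatives, of which 13 did not pass (adjusted p 0.0606 to 0.301).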

How the results depend on the processing

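The 95 named called genes kept their direction in all 32 alternatives, and 22 passed in each. Calls numbered 204 higher and 114 lower, with 1 difference from WT. Genes called lower numbered 172 with a common median, 178 with quantile normalization and 222 with library quality weights. Calls were 122 higher and 39 lower in batch 2 libraries alone, 80 and 42 with plain empirical Bayes, 125 and 69 in the Twi P10 and P20 libraries alone, and 135 and 39 in all Twi libraries with batch. Differences from WT numbered 2 with log2(TPM + 1), 2 with log2(TPM + 0.1), 4 with no filter, 2 with no batch term, 14 with quality weights, and 0 with a sex covariate or in batch 2 alone. Leaving out 1 library gave 70 to 258 higher, 25 to 140 lower and 0 to 4 differences. Replicate numbers did not pair the Twi samples (correlations of deviations 0.016, 0.006 and 0, with replicate 1 alone closest to its own number). The replicate block gave 249 higher, 96 lower and 0 differences, and 166 and 60 with the Twi P10 and P20 libraries alone. Medians of 12 lists changed sign under at least 1 alternative. Among them were oligodendrocytes (0.15 at 5 CPM in 3 libraries), vessels (-0.6057 to 0.7620 when 1 library was left out, with 0.76 lacking Twi P10 replicate 1 and 0.46 lacking Twi P20 replicate 1) and glycolysis (-0.0095 to 0.2729, the lowest without Twi P20 replicate 3). The other medians that took both signs were those of astrocytes (-0.59 to 0.30), oligodendrocyte precursors (-0.73 to 0.51), B cells (-0.72 to 0.06), white matter microglia (-0.04 to 0.28), lipid (-0.17 to 0.02), lysosome (-0.08 to 0.06), sphingolipid (-0.03 to 0.12), oxidative phosphorylation (-0.02 to 0.18) and complement genes (-0.0003 to 0.14). The cause was not tested. The files hold no counts, so the precision that depth gives each value is unknown.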
